A study of Mus musculus with 12 samples.

Results

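Skeletal muscle genes were followed through the RNA of mouse back skin, in a set of 35 genes that encode the sarcomere, the calcium machinery and the energy enzymes of muscle fibres. The 35 genes were listed by symbol from a table of 56923 genes, and 18529 genes of that table, with all 35 members among them, had enough reads to be tested. The symbols were chosen with earlier results of these data known, and *Ky* in particular was picked for its low level in the control mice labelled *Lcn2*-/-. Skin was taken from 12 female mice, 8 to 10 weeks old. There were 4 groups with 3 mice in each, in which WT mice or mice labelled *Lcn2*-/- had received either control or imiquimod (IMQ) cream. The *Lcn2*-/- mice lack lipocalin 2 in every tissue by design of the line, on a C57BL/6 background, and the WT mice were their littermates. Both IMQ groups had 5% IMQ cream on the shaved back for 6 days, and both control groups had a vehicle cream. In the sample labels the genotype stands as a knockdown and the control treatment as none. The labels also speak of retina in the extraction text, while the samples themselves are labelled as skin.

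*Lcn2* itself, the targeted gene, was counted at 6.28, 8.63 and 4.57 CPM (counts scaled to a common library size) in WT control and at 10.5, 9.21 and 15.9 CPM in control labelled *Lcn2*-/-. It reached 61.1, 183 and 76.0 CPM in WT IMQ and 34.2, 29.8 and 49.7 CPM in IMQ labelled *Lcn2*-/-. The libraries labelled *Lcn2*-/- therefore held *Lcn2* reads in every mouse, above all WT libraries among controls, so that the genotype is used here as a label. Library totals ran from 16448226 to 28592110 counts, at which 3 counts correspond to between 0.105 and 0.182 CPM by library total. All CPM values were scaled by TMM, which corrects library totals for a few very abundant genes.

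A skeletal muscle fibre contracts when thick filaments of myosin pull on thin filaments of actin, after calcium released from the sarcoplasmic reticulum has bound troponin on the thin filament. Fibres are classed by their myosin heavy chain: type I fibres are slow, and type IIA, IIX and IIB fibres, marked by *Myh2*, *Myh1* and *Myh4*, are increasingly fast and glycolytic. In mice a thin sheet of skeletal muscle, the panniculus carnosus, lies under the dermis and the fat of the back, so full-thickness skin carries muscle RNA. The counts do not tell which muscle the reads came from.

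Promoter sequences are shown for members at the centre of the results below: *Acta1* and *Mylpf* as abundant muscle genes, *Myh4* and *Myh2* as myosins with different responses, and *Ky*. *Acta1* and *Mylpf* were set by a rule on their level, and the other 3 were chosen after their values were seen. Each runs 5′ to 3′ on the gene's strand from 250 bases before to 50 bases after a start in RefSeq (GRCm38.p6). Capitals mark an E-box (CANNTG, bound by myogenic factors such as MyoD), a MEF2 site or a CArG box, searched on both strands, and letters of different motifs may overlap.
Acta1: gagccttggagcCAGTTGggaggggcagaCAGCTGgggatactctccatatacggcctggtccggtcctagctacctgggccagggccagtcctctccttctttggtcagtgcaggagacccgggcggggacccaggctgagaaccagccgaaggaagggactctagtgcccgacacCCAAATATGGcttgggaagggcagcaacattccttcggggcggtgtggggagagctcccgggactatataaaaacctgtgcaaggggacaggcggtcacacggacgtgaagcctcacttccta
Mylpf: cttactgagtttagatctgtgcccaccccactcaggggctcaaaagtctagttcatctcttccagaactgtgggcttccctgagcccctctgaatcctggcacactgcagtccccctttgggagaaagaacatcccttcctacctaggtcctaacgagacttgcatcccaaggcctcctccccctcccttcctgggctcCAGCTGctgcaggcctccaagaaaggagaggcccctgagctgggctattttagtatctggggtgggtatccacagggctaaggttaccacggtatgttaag
Myh4: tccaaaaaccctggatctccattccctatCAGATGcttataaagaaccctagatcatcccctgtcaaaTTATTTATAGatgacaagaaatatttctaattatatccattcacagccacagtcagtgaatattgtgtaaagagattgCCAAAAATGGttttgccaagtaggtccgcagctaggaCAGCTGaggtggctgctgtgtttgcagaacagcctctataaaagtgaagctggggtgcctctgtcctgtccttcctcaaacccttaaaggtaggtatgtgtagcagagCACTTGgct
Myh2: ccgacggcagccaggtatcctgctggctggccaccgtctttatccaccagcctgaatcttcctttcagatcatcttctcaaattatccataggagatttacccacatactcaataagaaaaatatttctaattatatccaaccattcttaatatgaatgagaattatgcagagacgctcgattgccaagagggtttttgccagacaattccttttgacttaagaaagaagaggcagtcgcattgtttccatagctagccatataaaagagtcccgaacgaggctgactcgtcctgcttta
Ky: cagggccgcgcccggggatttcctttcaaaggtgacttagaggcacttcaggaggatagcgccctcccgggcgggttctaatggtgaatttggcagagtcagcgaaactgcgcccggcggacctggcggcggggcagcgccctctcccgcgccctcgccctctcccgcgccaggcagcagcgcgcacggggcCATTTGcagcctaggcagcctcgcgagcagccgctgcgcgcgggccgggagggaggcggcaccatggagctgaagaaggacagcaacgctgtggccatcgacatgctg
The windows lie at chr8:123894726-123895025 (*Acta1*, minus strand), chr7:127211358-127211657 (*Mylpf*), chr11:67237562-67237861 (*Myh4*), chr11:67170777-67171076 (*Myh2*) and chr9:102505888-102506187 (*Ky*), the last 4 on the plus strand. *Acta1* held 2 E-boxes and 1 CArG box, *Mylpf* 1 E-box, *Myh4* 3 E-boxes with 1 MEF2 site and 1 CArG box, and *Ky* 1 E-box, while none of these motifs was found in the *Myh2* window. RefSeq windows were matched for 27 of the 35 members, with 29 windows in all. An E-box was present in 24 of the 29 windows, against 72.3% of all 32851 windows. A MEF2 site was present in 5 against 3.19%, and a CArG box in 2 (*Acta1* and *Myh4*) against 1.63%. The sequence TATAAA was found in 6 of the 29 windows against 13.6%, and CATTCC, the core of the MCAT element, in 9 against 14.7%. These matches describe letters in the windows and say nothing of binding.

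In WT control skin the 35 genes together took 2.47%, 2.34% and 2.40% of all counts. Per kilobase of exon, skeletal actin (*Acta1*, chr8:123891769-123894751) was the highest member at 3172 CPM per kb (mean of 3 mice). It was followed by the fast troponins *Tnnt3* (1147 CPM per kb) and *Tnni2* (677 CPM per kb), with the fast regulatory light chain *Mylpf* at 880 CPM per kb between them. *Atp2a1*, the calcium pump of fast fibres, stood at 595 CPM per kb, *Myh1* at 440 and the titin cap *Tcap* at 438. The slow troponins were at the other end, with *Tnnt1* at 1.43 CPM per kb, *Tnnc1* at 0.371 and *Tnni1* at 0.180. *Tnnc2*, the fast troponin C, stood at only 4.51 CPM per kb although its fast partners were among the 4 highest members. In the annotation 592 of its 800 exonic bases (74.0%) overlap *Ube2c* on the opposite strand, and whether reads were counted by strand is not given in the sources used here, so the level of *Tnnc2* is uncertain. *Myh1*, *Myh2* and *Myh4* lie beside each other on chromosome 11 (chr11:67171027-67260446 from the first to the last) and are nearly alike in sequence, so reads could be split between them.

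**Figure D1:**
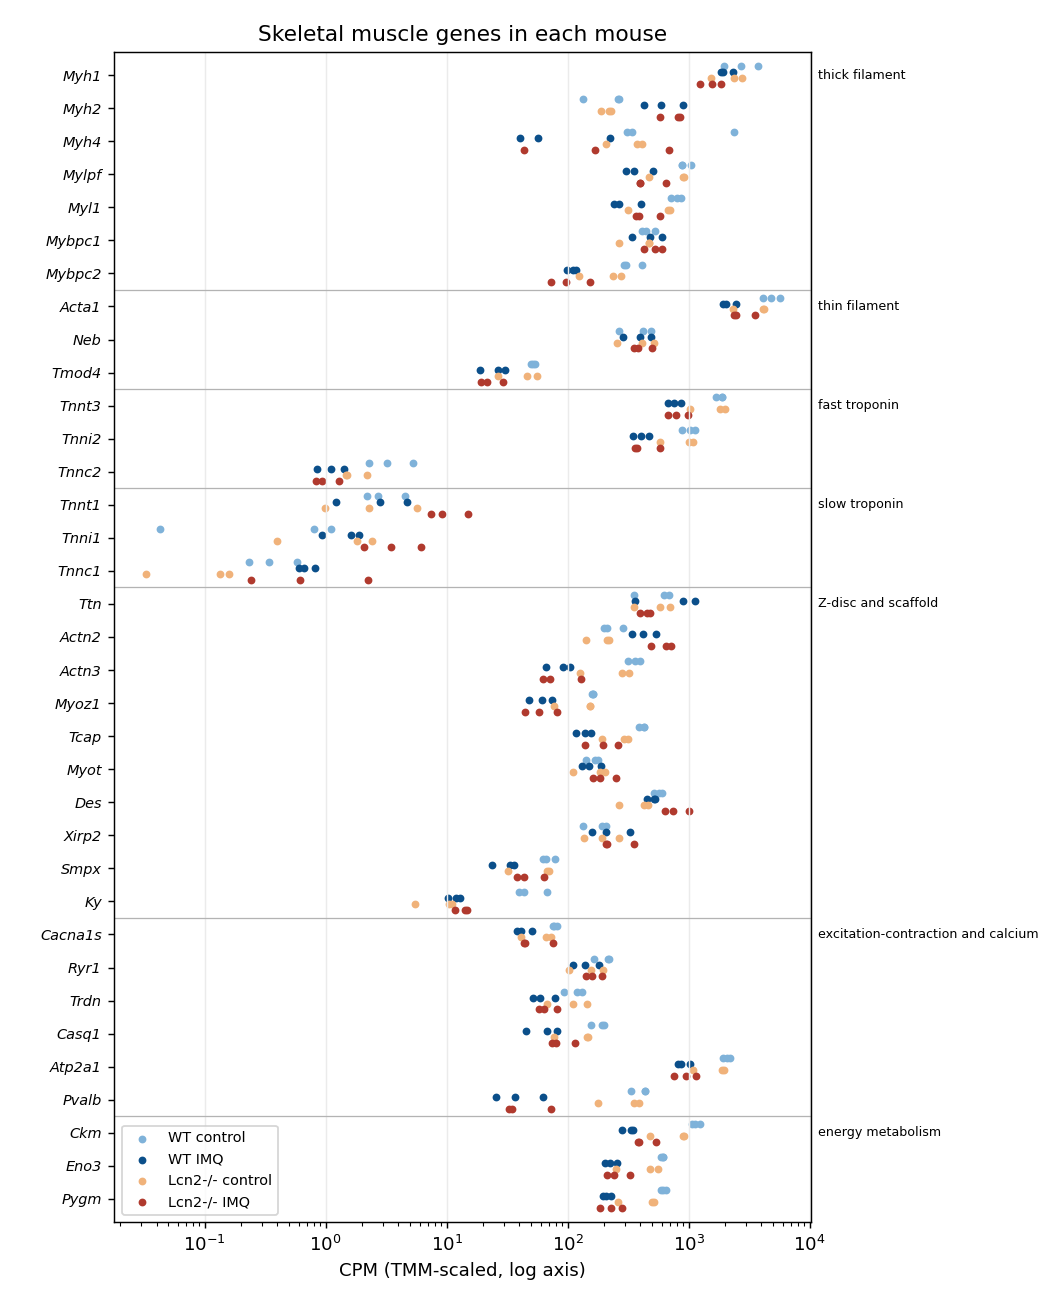
CPM of the 35 muscle genes on a log axis in the 12 mice, grouped by role, with 1 point per mouse and colours for the 4 groups. Most fast-fibre genes of the WT IMQ mice sit to the left of all WT control mice, the slow troponins lie near or below 10 CPM, and Ky of WT control stands alone on the right of the other groups.

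The summed level of the 35 genes separated the WT groups. It was 23249, 22694 and 22624 CPM in WT control and 14603, 10490 and 11701 CPM in WT IMQ. In the mice labelled *Lcn2*-/- it was 19796, 11293 and 21012 CPM in control and 12371, 17188 and 11534 CPM under IMQ. The WT groups did not overlap, whereas control mouse 2 labelled *Lcn2*-/- lay below all 3 IMQ mice of that genotype. That mouse was the lowest of its group in 31 of the 35 members, and its summed level stood at 11293 CPM beside 19796 and 21012 CPM. Among IMQ mice labelled *Lcn2*-/-, mouse 2 was the highest in 32 of 35 members and mouse 3 the lowest in 26, and in WT IMQ mouse 1 was the highest in 29. The WT control mice were close in sum, and no mouse among them was the lowest in more than 14 members. In whole-skin RNA fewer muscle fibres in the sample, less muscle RNA per fibre and a larger share of RNA from other cells cannot be told apart.

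Markers of other skin cells were summed by list. Genes said to rise or fall had a Benjamini-Hochberg adjusted p under 0.05 (edgeR) against the control of the same genotype. Over all tested genes 14.2% rose and 14.3% fell in WT IMQ. In IMQ labelled *Lcn2*-/- 14.1% rose and 11.2% fell. The summed level of 5 keratinocyte genes (*Krt5*, *Krt14*, *Krt1*, *Krt10* and *Trp63*) lay between 3960 and 6591 CPM in WT control and between 27038 and 36090 CPM in WT IMQ, where all 5 rose. In the mice labelled *Lcn2*-/- it ran from 4346 to 5298 CPM in control and from 15170 to 25894 CPM under IMQ, where 4 of the 5 rose. The 8 hair shaft genes summed to between 1.29 and 1209 CPM in WT control and between 54.2 and 4908 CPM in control labelled *Lcn2*-/-, with the highest sum in mouse 2, the mouse of lowest muscle level. Under IMQ the hair shaft sum was at most 36.5 CPM. The 9 fibroblast and fascia genes ran from 10481 to 17861 CPM in WT control, from 10454 to 11088 CPM in WT IMQ, from 11020 to 12309 CPM in control labelled *Lcn2*-/- and from 20430 to 21275 CPM in IMQ labelled *Lcn2*-/-. Of these, 4 fell in WT IMQ (*Col1a1*, *Col1a2*, *Dpt* and *Pi16*) and 4 rose in IMQ labelled *Lcn2*-/- (*Col1a1*, *Col1a2*, *Col3a1* and *Lum*). The 7 white adipocyte genes summed to between 3396 and 5552 CPM in WT control, 1730 and 4041 CPM in WT IMQ, 3576 and 7478 CPM in control labelled *Lcn2*-/- and 3524 and 4893 CPM in IMQ labelled *Lcn2*-/-. Of 5 tendon genes 4 fell in WT IMQ, and only the tenocyte gene *Tnmd* passed the test in the mice labelled *Lcn2*-/-. The defining cardiac genes *Myh6* and *Nppa* stayed at a group mean of at most 0.169 CPM, while *Nppb* and *Myl7*, 2 of the 4 tested genes of that list, rose under IMQ in both genotypes. *Nppb* was lower in IMQ labelled *Lcn2*-/- than in WT IMQ (edgeR, adjusted p = 0.0219). Its response to IMQ was also smaller in that genotype (edgeR, adjusted p = 0.0282). The brown fat gene *Ucp1* was at a group mean of at most 0.0807 CPM. The 5 brown adipocyte genes, *Ucp1* among them, summed to between 192 and 373 CPM in WT control and between 41.2 and 271 CPM in WT IMQ. In the mice labelled *Lcn2*-/- they summed to between 189 and 213 CPM in control and between 85.7 and 158.5 CPM under IMQ. Of the 4 tested genes of that list, *Cidea* fell in both genotypes. The part of hair, epidermis, fascia and tendon in the muscle values was not tested.

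**Figure D2:**
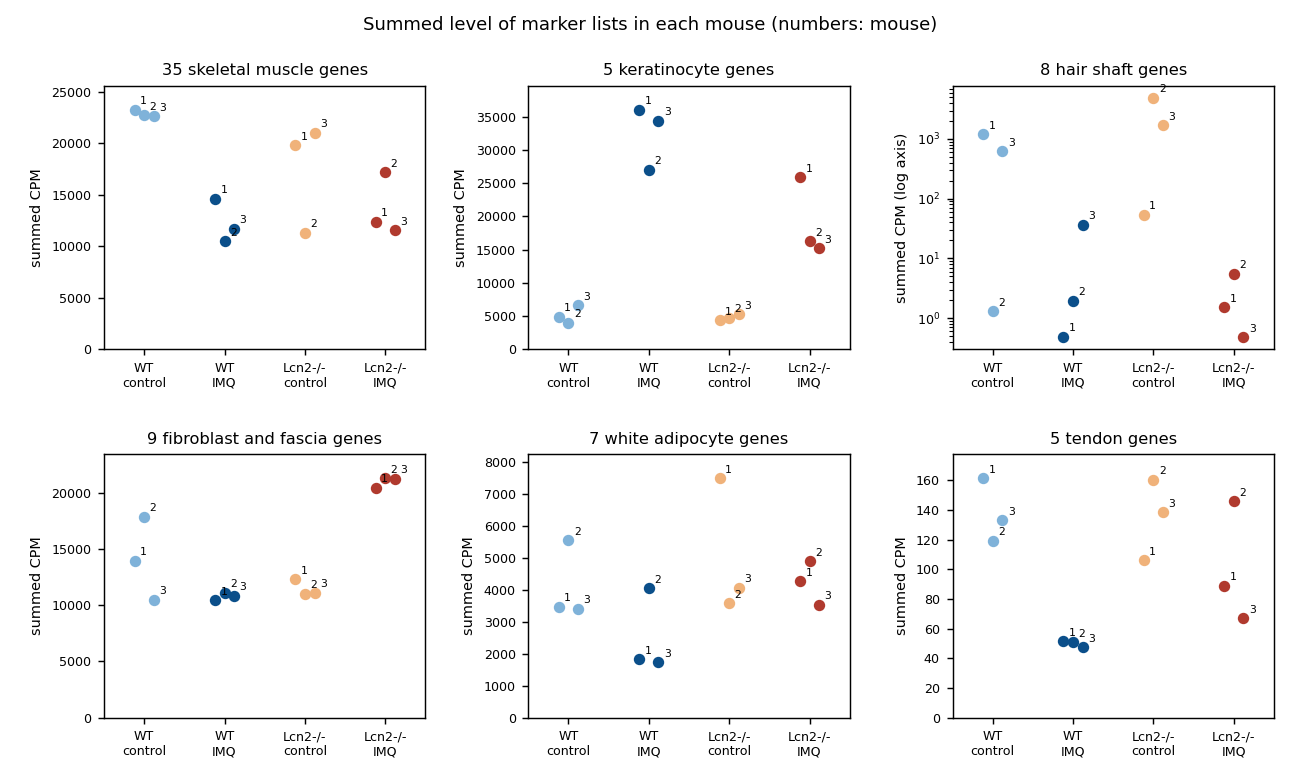
Summed CPM of the 35 muscle genes and of 5 marker lists in each mouse (points, numbered by mouse), with a log axis for the hair shaft genes only. Control mouse 2 labelled Lcn2-/- combines the lowest muscle sum of its group (11293 CPM) with the highest hair shaft sum of all mice (4908 CPM).

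To ask how IMQ changed muscle RNA in WT skin, WT IMQ was compared with WT control. Of the 34 members other than *Ky*, 20 fell and 2 rose with a Benjamini-Hochberg adjusted p under 0.05 (edgeR quasi-likelihood test, over all 18529 genes), against 14.3% of all tested genes called lower and 14.2% called higher. The median log2 fold change of the 34 was -1.17, beside -0.02 over all tested genes. All 3 IMQ mice lay below all 3 control mice in 21 members (20.6% of all tested genes) and above them in 3 (20.1%). By a rule of more than 2-fold with an unadjusted p under 0.05, 19 members were lower (9.79% of all tested genes) and 1 was higher (8.4%). *Ky* is left out of these counts since its choice rested on the same control mice.

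Among the thick filament genes, *Mylpf* was at 879, 886 and 1037 CPM in WT control and at 509, 306 and 352 CPM in WT IMQ. It fell by 1.26 on the log2 scale (SE 0.287, adjusted p = 0.00717). *Myl1*, an essential light chain of fast fibres, fell by 1.38, and *Mybpc2*, the fast myosin-binding protein C, fell by 1.63. *Mybpc1*, the slow form, was at a log2 fold change of 0.04 (adjusted p = 0.928). *Myh2*, the myosin of type IIA fibres, went the other way: its levels were 133, 268 and 260 CPM in control and 904, 428 and 586 CPM under IMQ. It rose 2.90-fold (log2 1.54, SE 0.306, adjusted p = 0.00354), and every IMQ mouse was above every control mouse. *Myh1*, the most abundant heavy chain by group mean, did not pass the test (log2 -0.45, adjusted p = 0.22).

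*Myh4*, the myosin of type IIB fibres, was at 338, 2353 and 312 CPM in WT control and at 40.0, 225 and 57.4 CPM in WT IMQ. The groups did not overlap, but the test was not passed (log2 -3.22, SE 1.16, adjusted p = 0.0623). Control mouse 2 stood far above the other control mice, and without it the log2 fold change was -1.59 (adjusted p = 0.322). Leaving out other mice gave adjusted p-values down to 0.043, library totals alone gave 0.0477 and DESeq2 gave 0.0166, so the call for *Myh4* depended on the fit.

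Of the thin filament genes and their fast regulators all but *Neb* fell. *Acta1* stood at 4830, 4147 and 5640 CPM in control and at 2469, 1913 and 2048 CPM under IMQ, a fall by 1.19 on the log2 scale (SE 0.245, adjusted p = 0.00414). *Tmod4*, which caps the pointed end of the thin filament, fell by 1.03. *Neb*, the giant ruler protein nebulin, was at -0.01 (adjusted p = 0.98). All 3 fast troponins fell: *Tnnt3* by 1.25, *Tnni2* by 1.32 and *Tnnc2* by 1.68, the last with fewer than 6 CPM in each mouse. None of the 3 slow troponins passed the test.

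The Z-disc and scaffold genes were divided. *Actn3*, the actinin found in fast glycolytic fibres, was at 315, 395 and 360 CPM in control and at 105, 92.4 and 66.1 CPM under IMQ. It fell by 2.02 on the log2 scale (SE 0.35, adjusted p = 0.00159). *Actn2*, the actinin of all fibres, was at 288, 200 and 210 CPM in control and at 541, 340 and 419 CPM under IMQ, and it rose 1.86-fold (log2 0.90, SE 0.232, adjusted p = 0.0136). The opposite movement of these partners held in every mouse, since neither gene's groups overlapped. *Myoz1*, a calcineurin-binding Z-disc protein, fell by 1.39, *Tcap* by 1.60 and *Smpx* by 1.15. Titin (*Ttn*), myotilin (*Myot*), desmin (*Des*) and *Xirp2* did not pass the test, with log2 fold changes of 0.53, -0.06, -0.18 and 0.37.

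The largest fall of the called members was in *Pvalb*, which encodes parvalbumin, the calcium buffer of fast fibres. It was at 336, 439 and 438 CPM in WT control and at 62.3, 36.5 and 25.6 CPM in WT IMQ, and it fell by 3.29 on the log2 scale (SE 0.424, adjusted p = 0.000246). The calcium pump *Atp2a1* fell by 1.20, the store protein *Casq1* by 1.49, triadin (*Trdn*) by 0.86 and the voltage sensor *Cacna1s* by 0.85. The release channel *Ryr1* was at -0.47 (adjusted p = 0.162). All 3 enzymes of energy supply fell. Muscle creatine kinase (*Ckm*) was at 1056, 1126 and 1241 CPM in control and at 345, 336 and 283 CPM under IMQ, a fall by 1.83 (SE 0.234, adjusted p = 0.000206). Glycogen phosphorylase (*Pygm*) fell by 1.56 and the muscle enolase *Eno3* by 1.42. With library totals in place of TMM the median of all genes shifted to -0.19, and 21 members were called lower and 2 higher. Over all 18529 tested genes that scaling called 4225 lower and 1831 higher, against 2653 and 2633 with TMM.

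**Figure D3:**
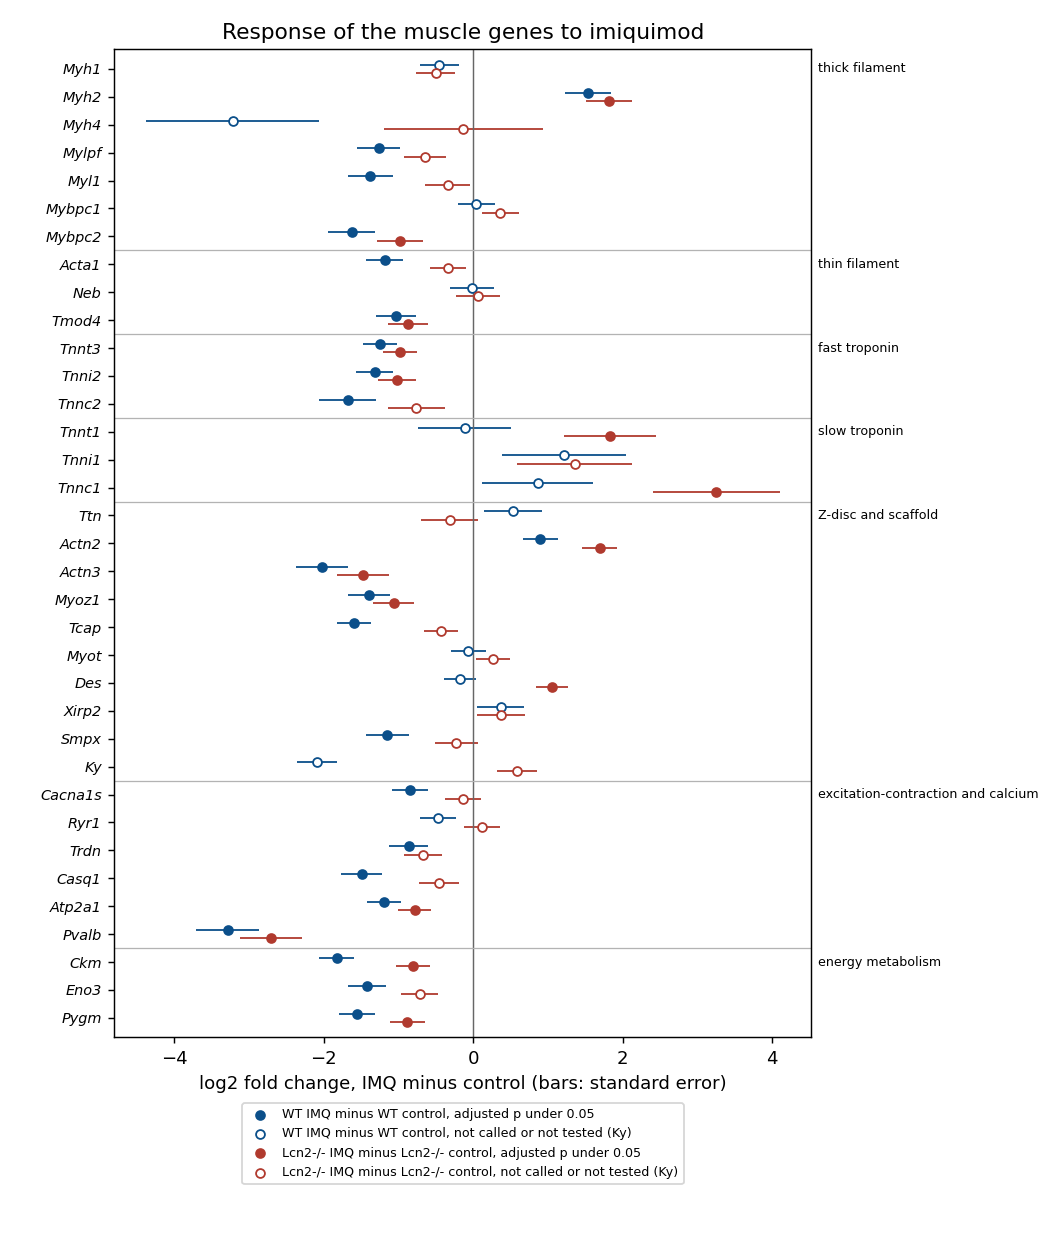
Log2 fold change (IMQ minus control) of the 35 muscle genes, with standard errors, in WT mice (blue) and mice labelled Lcn2-/- (red). Filled points have an adjusted p under 0.05, and open points were not called or, for Ky, not tested. Myh2 and Actn2 lie right of 0 and Pvalb and Actn3 left of 0 in both genotypes, and most red points lie right of the blue ones.

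The same question was asked in the mice labelled *Lcn2*-/-, with their own control and IMQ groups. Of the 34 members, 10 fell (11.2% of all tested genes) and 5 rose (14.1%), with a median log2 fold change of -0.39 beside -0.05 over all tested genes. The 10 that fell (*Mybpc2*, *Tmod4*, *Tnnt3*, *Tnni2*, *Actn3*, *Myoz1*, *Atp2a1*, *Pvalb*, *Ckm* and *Pygm*) had also fallen in WT mice, and *Myh2* and *Actn2* rose in both genotypes. A further 10 genes were called lower in WT mice only and 3 higher in mice labelled *Lcn2*-/- only, and 9 were called in neither. By the rule of 2-fold with an unadjusted p, 4 members were lower (8.37% of all tested genes) and 5 higher (8.59%). All IMQ mice lay below all control mice in 4 members (22.8%) and above them in 5 (23.1%). The median was -0.63 without control mouse 2 and -0.66 without IMQ mouse 2, and -0.25 and -0.24 without control mouse 3 and IMQ mouse 3. Without control mouse 2, whose muscle level was lowest, 13 members fell and 5 rose. Without control mouse 1 or 3, 4 and 3 fell, and without IMQ mouse 1 or 3, 3 and 2 fell, and the count of rises ran from 3 to 5. The shares of all tested genes called in these fits without a mouse are not given. Their counts are therefore a description, from which nothing is read for the members.

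*Pvalb* was at 351, 177 and 388 CPM in control and at 32.7, 73.0 and 34.7 CPM under IMQ, again a clear separation (log2 -2.71, SE 0.414, adjusted p = 0.00114). *Actn3* was at 281, 127 and 321 CPM against 71.0, 128 and 63.0 CPM and fell by 1.48, with the lowest control mouse level with the highest IMQ mouse. *Tnnt3* fell by 0.98 and *Tnni2* by 1.02, and neither overlapped between the groups, although control mouse 2 and IMQ mouse 2 were nearly level in *Tnni2* (578.9 and 578.6 CPM). *Ckm* fell by 0.81 and *Pygm* by 0.88, whereas *Eno3* was just outside the threshold (log2 -0.72, adjusted p = 0.0541). *Acta1* (log2 -0.34, adjusted p = 0.331), *Mylpf* (-0.64, adjusted p = 0.118) and *Tcap* (-0.43, adjusted p = 0.175) did not pass.

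*Myh2* was at 221, 188 and 228 CPM in control labelled *Lcn2*-/- and at 847, 810 and 579 CPM under IMQ. It rose 3.52-fold (log2 1.81, SE 0.308, adjusted p = 0.00206). *Actn2* was at 219, 142 and 213 CPM against 648, 718 and 486 CPM and rose 3.23-fold (adjusted p = 0.000628). Desmin, the intermediate filament that links Z-discs, was at 425, 266 and 463 CPM against 743, 1016 and 640 CPM and rose 2.08-fold (adjusted p = 0.0048). None of these 3 genes overlapped between the groups. Desmin is also a gene of smooth muscle, and *Myh11* and *Myocd*, 2 of 9 smooth muscle genes, rose as well while *Synm* fell. The summed level of the 9 lay between 473 and 569.7 CPM in control and between 570.1 and 699.5 CPM under IMQ. Of 5 endothelial genes *Pecam1*, *Cdh5* and *Vwf* rose, with sums from 217.5 to 405.5 CPM in control and from 787 to 811.5 CPM under IMQ. In WT mice the smooth muscle sum was 528 to 591 CPM in control and 452 to 631 CPM under IMQ, where *Lmod1* and *Synm* fell. The endothelial sum of WT mice was 285 to 405 CPM in control and 374 to 642 CPM under IMQ, where *Pecam1* and *Vwf* rose. The part of vessels and smooth muscle in the desmin values was not tested. Of the 3 slow troponins, *Tnnt1* and *Tnnc1* rose from very low levels. *Tnnt1* was at 0.984, 5.69 and 2.27 CPM in control and at 7.44, 14.9 and 9.10 CPM under IMQ (log2 1.83, SE 0.613, adjusted p = 0.0475). Its adjusted p ran from 0.0134 without control mouse 2 to 0.153 without IMQ mouse 2. *Tnnc1* had 1, 3 and 3 counts in control and 10, 38 and 4 counts under IMQ, a ratio of summed counts of 10.6 with an exact 95% interval of 4.80 to 27.7 that covers counting error only. Its adjusted p was 0.0164, with 0.057 without control mouse 1 and 0.10 without IMQ mouse 2. *Myh4* did not pass the test here, with 373, 207 and 412 CPM in control and 43.5, 692 and 169 CPM under IMQ (log2 -0.13, adjusted p = 0.942).

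To ask whether the genotypes differed under IMQ, IMQ labelled *Lcn2*-/- was compared with WT IMQ. By edgeR 0 of the 34 members were called in either direction (2.19% of all tested genes higher, 2.6% lower), while 6 had an unadjusted p under 0.05. DESeq2 called 2 higher, beside 1288 higher calls among all 18529 tested genes. By the 2-fold rule 1 member, *Tnnt1*, was higher (3.1% of all tested genes) and 0 members lower (3.35%). All 3 mice labelled *Lcn2*-/- lay above all WT IMQ mice in 5 members (16%) and below them in 1, *Myh1* (17.3%). The median log2 fold change was 0.19 beside -0.02 over all genes. It was -0.0031 without IMQ mouse 2 and 0.34 without IMQ mouse 3 of those labelled *Lcn2*-/-, and 0.49 and 0.10 without WT IMQ mouse 1 and 2. The smallest adjusted p was that of *Des*, at 526, 454 and 513 CPM in WT IMQ and 743, 1016 and 640 CPM in IMQ labelled *Lcn2*-/- (log2 0.68, SE 0.213, adjusted p = 0.0772). *Tnnt1* was at 4.72, 2.82 and 1.21 CPM against 7.44, 14.9 and 9.10 CPM (log2 1.85, adjusted p = 0.0919). Several members of the IMQ groups were nearly level: *Myoz1* had mean levels of 61.2 and 61.1 CPM, *Actn3* 87.8 and 87.3 CPM, and *Mybpc2* 109 and 108 CPM. *Ky*, for which this comparison shares no mouse with the choice of the gene, was at 10.3, 12.02 and 13.0 CPM in WT IMQ and 14.6, 14.3 and 11.7 CPM in IMQ labelled *Lcn2*-/- (log2 0.20, SE 0.265, adjusted p = 0.653).

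The difference between the IMQ responses was also tested directly. None of the 34 members passed by edgeR (1.37% of all tested genes called higher and 0.783% lower), and 9 had an unadjusted p under 0.05. DESeq2 called 3 as higher, beside 1097 higher calls among all 18529 tested genes. The 2-fold rule marked 6 as higher (6.06% of all tested genes) and 0 as lower (4.91%). The difference was above 0 in 32 of the 34 members, with a median of 0.61 on the log2 scale beside -0.02 over all genes, *Myh1* and *Ttn* being the exceptions. The median was 0.38 without control mouse 2 and 0.33 without IMQ mouse 2, both labelled *Lcn2*-/-, and at most 0.80 without any 1 mouse. The difference was largest relative to its error in *Des* (1.24, SE 0.301, adjusted p = 0.055), *Tcap* (1.17, SE 0.316, adjusted p = 0.0712) and *Ckm* (1.02, SE 0.322, adjusted p = 0.0966). Without control mouse 2 labelled *Lcn2*-/- these became 1.03 (adjusted p = 0.0892) for *Des* and 0.98 (adjusted p = 0.132) for *Tcap*.

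The control groups are described without a test, since the list was known to hold a gene that fell there. Control labelled *Lcn2*-/- was lower than WT control in 30 of the 34 members by the fitted log2 fold change, with a median of -0.34 beside 0.00081 over all tested genes. In 12 of the 34 all 3 mice labelled *Lcn2*-/- lay below all WT mice (5.17% of all tested genes), among them *Ckm*, *Pygm*, *Eno3*, *Tcap* and *Des*, and in 0 of them above (4.19%). The adjusted threshold was passed by 0.0054% of all tested genes in each direction, and by the 2-fold rule 1.35% were higher and 0.928% lower, from which nothing is read for the members. Without control mouse 2 labelled *Lcn2*-/- the median was -0.13, and without mouse 1 or 3 of that group it was -0.47 and -0.51.

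*Ky* encodes kyphoscoliosis peptidase, a Z-disc protein that interacts with filamin C and whose loss causes a muscle disease with a curved spine in mice (*Ky*, chr9:102505750-102546239, plus strand). It was at 39.4, 67.3 and 44.0 CPM in WT control, 10.3, 12.02 and 13.0 CPM in WT IMQ, and 11.1, 5.48 and 10.4 CPM in control labelled *Lcn2*-/-. Under IMQ the latter genotype stood at 14.6, 14.3 and 11.7 CPM. The WT control mice stood apart from all 9 others. The fitted log2 difference was -2.48 between the control groups, the comparison by which the gene was chosen. It was -2.09 for IMQ in WT mice, a comparison that shares the WT control mice with that choice. To set *Ky* against the muscle content of each sample, its CPM was divided by the summed CPM of the other 34 genes. Per 1000 CPM of muscle genes, *Ky* made up 1.70, 2.97 and 1.95 CPM in WT control and 0.559, 0.486 and 0.497 CPM in control labelled *Lcn2*-/-. It was 0.705, 1.15 and 1.11 in WT IMQ and 1.18, 0.829 and 1.02 in IMQ labelled *Lcn2*-/-. These values rest on the mice by which *Ky* was chosen and are given as a description only.

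**Figure D4:**
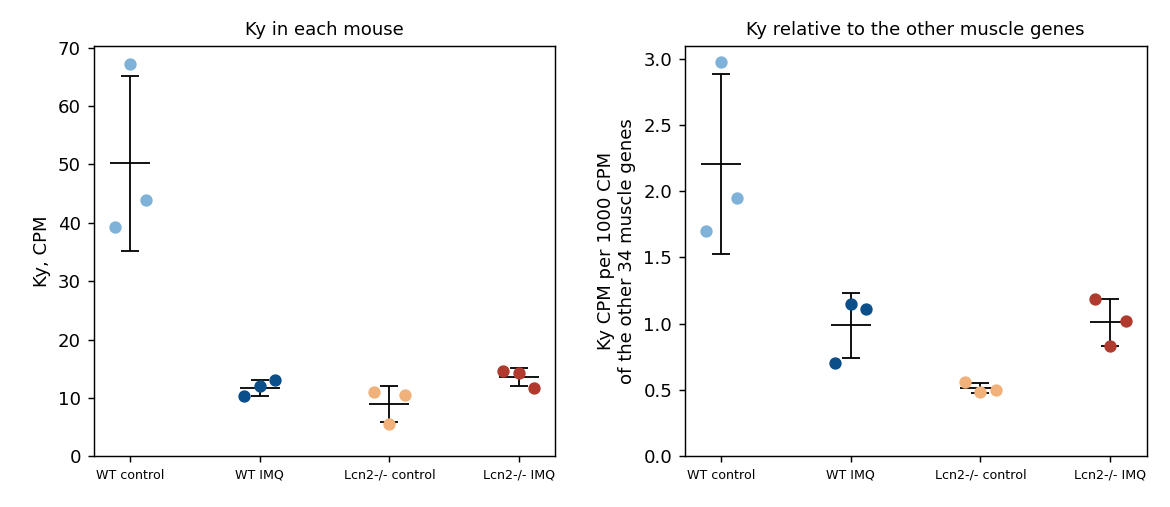
Ky in each mouse as CPM (left) and per 1000 CPM of the other 34 muscle genes (right), with 1 point per mouse and the mean and SD of each group. The WT control mice are highest on both scales, and on the right the control mice labelled Lcn2-/- lie between 0.486 and 0.559.

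The mixture of fast myosins differed with treatment. As a share of 6 heavy chain genes per kilobase of exon, *Myh2* made up 2.82%, 5.09% and 7.06% in WT control and 25.4%, 14.9% and 21.2% in WT IMQ. In the mice labelled *Lcn2*-/- it made up 6.63%, 8.79% and 6% in control and 36.6%, 21.6% and 22.7% under IMQ. Each IMQ mouse was above each control mouse of either genotype. *Myh1* took 79.7% to 81.1% in control labelled *Lcn2*-/- and 55.7% to 69.0% under IMQ, and in WT mice it took 88.6%, 41.9% and 82.8% in control and 72.9% to 76.0% under IMQ. The low value in WT control came from mouse 2, in which *Myh4* took 53.0%, beside 8.51% and 10.1% in the other WT control mice. *Myh4* took 11.5% to 13.3% in control labelled *Lcn2*-/- and spread from 2.23% to 21.9% under IMQ. *Myh7*, the slow heavy chain, was listed at 0 in 11 of the 12 mice. Since reads could be split between these near-identical genes, the shares carry that uncertainty in every mouse.

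**Figure D5:**
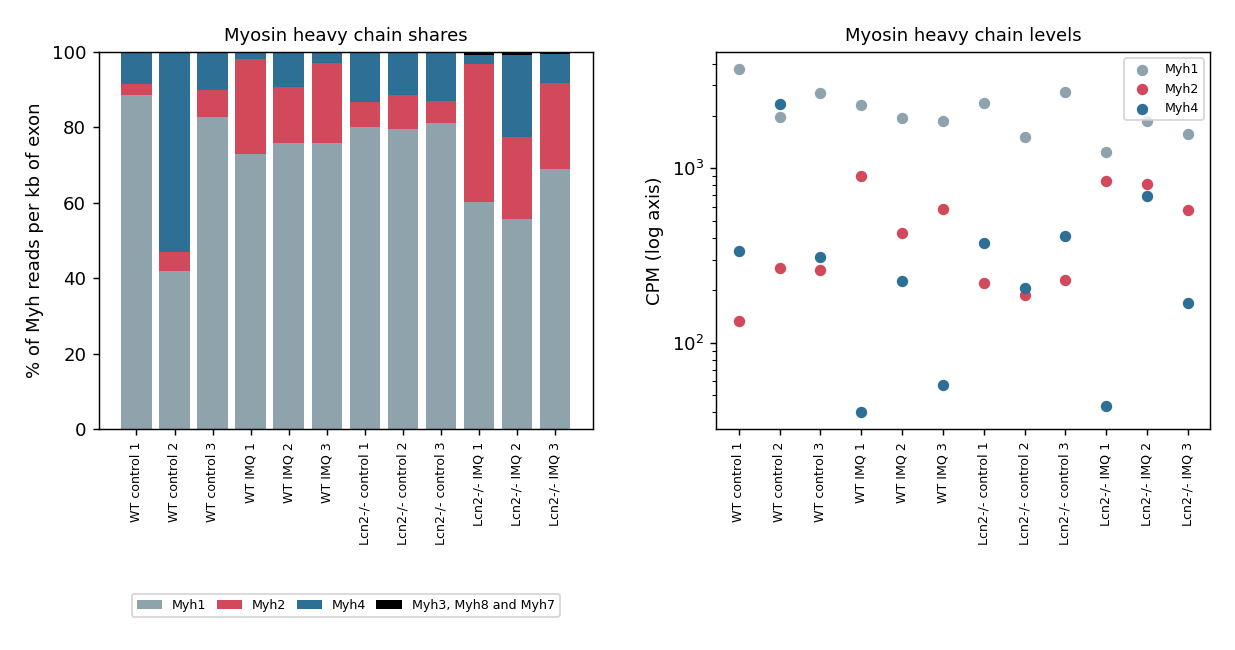
Myosin heavy chain genes in each mouse, as shares of the reads per kb of exon (left) and as CPM on a log axis for Myh1, Myh2 and Myh4 (right). Myh2 shares are 14.9% to 36.6% in the 6 IMQ mice and 2.82% to 8.79% in the 6 control mice, and WT control mouse 2 is marked by a Myh4 share of 53.0%.

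The slow troponins stayed a small fraction of troponin RNA. The log2 ratio of summed slow to summed fast troponin per kb was -9.51, -10.3 and -9.92 in WT control and -8.05, -8.28 and -8.65 in WT IMQ. It was -11.6, -8.26 and -10.2 in control labelled *Lcn2*-/- and -7.36, -6.57 and -7.01 under IMQ. The ratio was higher under IMQ without overlap in both genotypes, with fast troponin at 660 to 859 CPM per kb in WT IMQ beside 1661 to 1948 in WT control. Slow troponin per kb lay between 1.86 and 3.23 CPM in WT IMQ and between 1.34 and 2.58 in WT control, so these overlapped. In the mice labelled *Lcn2*-/- it lay between 0.587 and 3.40 CPM in control and between 4.54 and 10.6 CPM under IMQ, without overlap.

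Members were also set against the median member of the same mouse. *Pvalb* was lower by 2.48 in WT mice and by 2.51 in mice labelled *Lcn2*-/- on that log2 scale, and *Myh2* was higher by 2.41 and 2.00. *Actn2* was higher by 1.76 and 1.90, and *Actn3* was lower by 1.17 and 1.23. These differences take the members as their own reference and were not tested.

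Other genes of muscle were counted from lists by role, beside 14.3% of all tested genes lower and 14.2% higher in WT mice and 11.2% lower and 14.1% higher in mice labelled *Lcn2*-/-. Of 36 further sarcomere and triad genes, 15 fell and 2 rose in WT IMQ, and 5 fell and 4 rose in the mice labelled *Lcn2*-/-, where both counts are near those shares. Among the abundant ones, the tropomyosin *Tpm1* fell by 1.19 on the log2 scale in WT mice and by 0.84 in mice labelled *Lcn2*-/-, while *Tpm2* fell by 0.76 in WT mice only (difference of the responses, adjusted p = 0.209). *Mylk4*, a kinase of the myosin light chain family, fell by 3.07 and 2.15, and dystrophin (*Dmd*) fell by 1.22 and 1.12. *Ankrd2*, a stretch-responsive gene, rose from 11.5, 7.26 and 11.04 CPM to 68.1, 30.5 and 49.0 CPM in WT mice. It rose by 2.31 on the log2 scale there and by 1.87 in mice labelled *Lcn2*-/-. Of 16 genes of muscle metabolism, 13 fell in WT mice and 4 in mice labelled *Lcn2*-/-, and none rose in either. *Pgam2*, the muscle phosphoglycerate mutase, fell by 1.57 in WT mice. Of 13 genes of the muscle membrane and the neuromuscular junction, 4 fell in WT mice, and 1 fell and 2 rose in mice labelled *Lcn2*-/-. The largest fall in that list was *Mrln*, which encodes the calcium pump regulator myoregulin, at -3.25 and -3.43 from group means of at most 2.65 CPM.

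The slow-fibre list, measured in 8 of 10 genes, had 3 rises and no fall in each genotype (*Atp2a2*, *Tpm3* and *Myoz2*), and *Atp2a2* and *Tpm3* are also expressed outside muscle. Of 6 tested genes of embryonic and regenerating fibres, 3 rose in WT mice and 4 in mice labelled *Lcn2*-/-. Embryonic myosin *Myh3* was at 0.277, 0.0859 and 0 CPM in WT control and at 8.41, 1.95 and 5.90 CPM in WT IMQ, a ratio of summed counts of 44.4 (exact 95% counting interval 22.2 to 104). In the mice labelled *Lcn2*-/- it had 3 counts over the 3 control libraries and 567 under IMQ, a ratio of 270 with a counting interval of 91.8 to 1312. Myogenin (*Myog*), a factor of muscle differentiation, rose by 1.65 and 2.92. Of 9 tested satellite cell and regulator genes, 6 fell in WT mice, and 2 fell and 1 rose in mice labelled *Lcn2*-/-. Myostatin (*Mstn*), which restrains muscle growth, was at 70.1, 75.2 and 51.9 CPM in WT control and at 2.48, 5.64 and 1.35 CPM in WT IMQ. It fell by 4.41 on the log2 scale (SE 0.735, adjusted p = 0.00127) there and by 2.22 (adjusted p = 0.0307) in mice labelled *Lcn2*-/-. The 10 atrophy genes had 4 rises and 2 falls in WT mice, with the ubiquitin ligases *Trim63* (MuRF1) higher by 0.58 and *Fbxo32* (atrogin-1) lower by 0.66, and 1 rise in mice labelled *Lcn2*-/-. Calls of these lists stand beside 14.3% of all tested genes lower and 14.2% higher in WT mice. In mice labelled *Lcn2*-/- those shares were 11.2% lower and 14.1% higher. The 2 falls of atrophy genes in WT mice and the single rises in mice labelled *Lcn2*-/- are near them.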

How the data were processed

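Back skin of 12 mice was sequenced, with ribosomal RNA removed per the labels. The authors deposited 1 table of raw read counts per gene. HISAT and the build mm8 stand in the submitters' processing notes without roles or versions, and the counting tool, its annotation and its use of strand are not given in the sources used here. Of the 56923 identifiers, 91.5% were given a symbol from GENCODE M21 (GRCm38), from which positions and exon lengths also come. Identifiers without a symbol held 0.567% of counts.

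Counts were fitted with edgeR 4.0.16 in R 4.3.3 (TMM, filterByExpr with a count minimum of 10 and a total of 15, robust quasi-likelihood test) over all 12 mice with 4 group means. A call was a Benjamini-Hochberg adjusted p under 0.05 over 18529 genes. CPM values use the TMM library sizes, and log2 CPM carries a pseudocount of 0.5. Simulated counts with 200 genes changed 4-fold, drawn for WT IMQ against WT control over 18201 genes, gave 88% recovered by edgeR, with 6.38% of its calls false, and 93.5% by DESeq2, with 20.8% false. The counts were drawn with the spread that edgeR had estimated, and far fewer genes were changed than were called in the data. These shares therefore do not carry over to the data and do not rank the 2 tools. The members, gene lists and tests were chosen with earlier results of these data known. Named genes were all members and, of other lists, the 3 highest by mean CPM or any with a call; Ube2c and the marker genes at or near 0 were named after their values were seen. The control groups were in the fit, but no test between them is read for a member; 1 count there by a rule that includes a p is given in the closing section as a description. A test of Ky is read only between the IMQ groups. Alternatives were other scalings, DESeq2 1.42.0, other filters, fold rules, a replicate block and leaving out each mouse. Same-numbered mice did not deviate together (mean correlation -0.0508), so numbers were not used as pairs. Intervals on counts cover counting error only.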

Additional observations from a re-analysis of the deposited data

Results flagged for a closer look

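Among the further muscle gene lists, 1 gene had a response to IMQ that differed between the genotypes by a direct test, and it was called lower. That count stands beside 1.37% of all tested genes called higher and 0.783% called lower. Nothing is read from it for muscle genes as a group. *Tnnt2*, the cardiac and embryonic form of troponin T, was at 2.45, 1.93 and 1.91 CPM in WT control and at 13.6, 7.65 and 10.9 CPM in WT IMQ. It was at 3.18, 3.41 and 6.51 CPM in control labelled *Lcn2*-/- and at 5.91, 4.38 and 3.59 CPM in IMQ labelled *Lcn2*-/-. Its log2 fold change was 2.35 in WT mice and 0.09 in mice labelled *Lcn2*-/-, a difference of -2.27 (SE 0.464, adjusted p = 0.0386, edgeR).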

How the results depend on the processing

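Counts below are of the 34 members without *Ky*. Shares of all tested genes are not given for the fits without single mice or of the compared mice alone. The same holds for the fold rule with an adjusted p. Counts from these settings are a description, from which nothing is read for the members. In WT mice the falls (20) ran from 18 to 21 and the rises (2) from 1 to 2 when single mice were left out, and either fold rule (fold above 2 with an unadjusted or an adjusted p under 0.05) left 1 rise. In mice labelled *Lcn2*-/- the falls (10) ran from 2 to 13 and the rises (5) from 3 to 5 without single mice, and there were 6 falls with the compared mice alone and 4 under each fold rule. Between the IMQ groups DESeq2 and the fit of the compared mice alone each called 2 higher, the unadjusted fold rule 1, and leaving out mice gave 0 to 1 higher and 0 to 1 lower. Over all genes this comparison had 405 higher and 481 lower calls by edgeR and 1288 and 1371 by DESeq2. For the difference of the responses DESeq2 called 3 higher, the fit without a filter 1, the unadjusted fold rule 6, and leaving out mice 0 to 1. Over all genes DESeq2 called 1097 higher and 963 lower for that difference. The fit without a filter called 310 higher and 203 lower among 34819 genes. Between the controls the unadjusted fold rule marked 1 gene lower, a description from which nothing is read. Library totals moved the median of all genes to -0.19 in WT mice and -0.25 in mice labelled *Lcn2*-/-, and put the summed level of WT control at 24002 CPM. The mean in place of the median member log2 CPM was 7.71 in WT control, 6.82 in WT IMQ, 7.28 in control labelled *Lcn2*-/- and 7.10 in IMQ labelled *Lcn2*-/-. Without division by exon length the slow to fast troponin ratio was -9.48 in WT control, -7.88 in WT IMQ and -6.43 in IMQ labelled *Lcn2*-/-, and the *Myh1* share of WT IMQ was 73.2%. With troponin T and I alone, an alternative chosen after seeing the data, the WT IMQ ratio was -8.85. The cause of these changes was not tested beyond the smaller number of mice or genes in some fits. Of single-gene results, 282 kept their direction and call and 12 lost the call under other settings, and 394 kept and 50 lost it without single mice. None changed sign.

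With the replicate number as a block, 2 members rose and 21 fell in WT mice and 4 rose and 7 fell in mice labelled *Lcn2*-/-. Over all 18529 tested genes that fit called 2196 higher and 2208 lower in WT mice. In mice labelled *Lcn2*-/- it called 2201 higher and 1521 lower. The labels do not say that a number marks a shared litter or day, and correlations of same-numbered mice ran from -0.555 to 0.199. With 3 counts equal to between 0.105 and 0.182 CPM by library total, depth limits mainly the slow troponins, while the widest standard errors in the IMQ comparisons were those of *Myh4*.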
